A study of Canis lupus familiaris with 3 samples.

Results

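The genes described are those whose symbol in the platform annotation starts with ZNF, ZBTB, ZKSCAN, ZSCAN, ZFP, ZFR or ZFX, which are names given to zinc finger proteins. Of 6043 genes with a single symbol on the array, 106 matched, and 94 of these had a value on all 3 arrays, which is 1.71% of the 5508 named genes measured there. The choice went by name and used no measured value. Each array held, in 1 dye, amplified RNA of E47 transfectants of MDCK, a dog kidney epithelial line, and in the other dye RNA of MDCK-CMV control cells. E47, a product of the TCF3 gene, is a helix-loop-helix factor that represses the E-cadherin gene CDH1. RNA of a first E47 extraction was put on 1 array in Cy5, and RNA of a second extraction on 1 array in Cy3 and on another in Cy5. The labels do not state how many clones each cell population came from, and they give no other treatment. The control culture medium was that of the E47 cells.

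Most proteins with these names carry C2H2 zinc fingers, short loops held by a zinc ion that read DNA bases in tandem. A KRAB domain in front of the fingers recruits the corepressor TRIM28, a BTB domain (the ZBTB names) forms dimers and recruits histone deacetylase complexes, and a SCAN domain lets such proteins pair. A few members have other jobs: ZFPL1 is a Golgi protein, ZNF207 binds microtubules and the spindle checkpoint protein BUB3, and the ZFP36-like proteins bind AU-rich elements and destabilise messenger RNAs.

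None of the 94 zinc finger genes passed the test, against 9.19% of all named genes. The test was limma's moderated test of the log2 ratio, E47 over control, with Benjamini-Hochberg adjustment over all features, a threshold of 0.05 and n = 2 extractions, the arrays of extraction 2 having been averaged. The smallest adjusted p of a member was 0.0519. Of all named genes 5.34% passed as higher and 3.85% as lower. An unadjusted p under 0.05 was reached by 22 members (23.4%), 9 higher and 13 lower in E47 cells, against 35.6% of all named genes, 17.4% higher and 18.2% lower. The 95% intervals of 91 of the 94 members lay within a 2-fold change in either direction, which was the case for 89.1% of all named genes. The intervals of ZBTB18, ZNF664 and ZNF766 reached a 2-fold decrease. Because the arrays of extraction 2 were averaged first, the gap between them is not part of these intervals. The median size of that gap was 0.21 for the members, beside a median SE of 0.09. A missed threshold does not show that a transcript stayed the same, and human clones on dog RNA may report it incompletely, which was not tested.

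The ratio is read as E47 over control and the logarithm as base 2. The direction is not stated; it is the likely one because the labels name the E47 cells first and CDH1 was low. If it ran the other way, higher would become lower throughout, and if the logarithm were natural, the lowest member, ZBTB18, would be at −1.11 in log2, the only member then at 2-fold or more. CDH1 had log2 ratios of −3.52, −3.83 and −3.47 on 3 arrays, given for every gene in the order extraction 1, Cy3 array of extraction 2, Cy5 array of extraction 2. TCF3 was at −0.27, −0.28 and −0.35, with an adjusted p of 0.118. TCF3, like CDH1, had been planned as a check of the labels. It was below 0 on every array, so this check did not bear out the assumed direction. The part of the transcript that its clones cover is not known here, so whether they register the E47 transcript is not known either. Of the epithelial markers CDH1, EPCAM, KRT8, KRT19, CLDN1, CLDN4, DSP and CDH16, 7 of 8 passed as lower, CDH16 being at −0.14. The mesenchymal markers SPARC, FN1 and TWIST1 passed as higher. Of 17 planned markers 15 were measured, and the mesenchymal VIM and the epithelial KRT18 were not among them. The leukocyte gene PTPRC, measured by 1 spot, passed as higher at 1.03, while CD14 was at −0.04. The endothelial genes PECAM1 and KDR were at 0.38 and 0.08 and did not pass. A ratio gives no level, so whether the defining markers were present in the control cells is not shown. In a bulk culture fewer cells of a type and less RNA per cell cannot be told apart. Nothing states that the extractions came from separate cultures, so p-values measure the spread between these extractions only.

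The zinc finger ratios lay in a narrow band around 0. Their mean log2 ratios ran between −0.77 and 0.67 with a median of −0.0066, and the medians on the 3 arrays were −0.0151, −0.0055 and −0.0182. The median of all 5508 named genes was −0.0167. The SD over genes was 0.26 for the members and 0.47 for all named genes. The median size of the ratio was 0.17 for members and 0.20 for all named genes. Of the members, 3 (3.19%) had a mean of at least 1.5-fold against 13% of all named genes, and no member had at least 2-fold against 4.76% of all named genes. Of the members, 46 had a mean above 0 and 48 below.

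**Figure D1:**
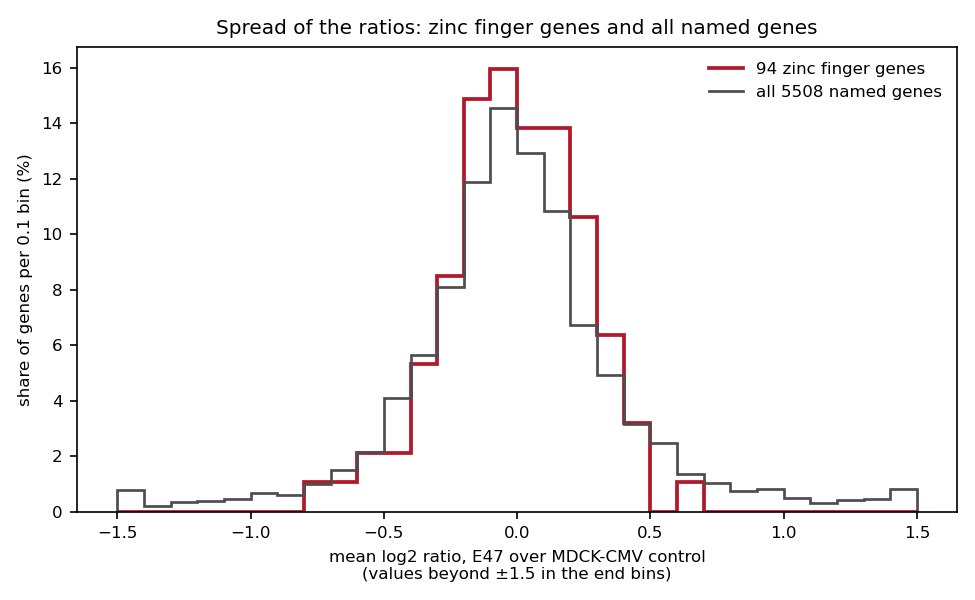
Share of genes (percent, vertical axis) in bins of 0.1 of the mean log2 ratio, E47 over MDCK-CMV control (horizontal axis), for the 94 zinc finger genes (red) and all 5508 named genes (grey), with values beyond 1.5 in the end bins. The peaks of both lines stand near 0, and the red line holds no gene outside −0.77 and 0.67.

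The sign of many members differed between arrays. The ratio had the same sign on all 3 arrays in 45 members, which is 47.9% against 63.3% of all named genes. Of these, 21 members were above 0 (22.3% against 30.6%) and 24 below (25.5% against 32.8%). In 31 members (33% against 20.4%) the Cy3 array was opposite in sign to both Cy5 arrays. In 51 members (54.3% against 42.9%) the dye swap of extraction 2, which holds the same RNA on both arrays, differed by more than the size of the mean. Across the 94 members the Cy5 array of extraction 2 correlated with r = 0.77 with the Cy5 array of extraction 1 and with r = 0.27 with its own dye swap, against 0.85 and 0.76 across all named genes. The remaining pair, the Cy5 array of extraction 1 and the Cy3 array of extraction 2, differs in both dye and extraction. Its r was 0.53 across the members, above that of the dye swap, and 0.69 across all named genes. These correlations are across genes, which are not independent replicates, and they depend on the spread of the ratios, which was smaller among members.

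**Figure D2:**
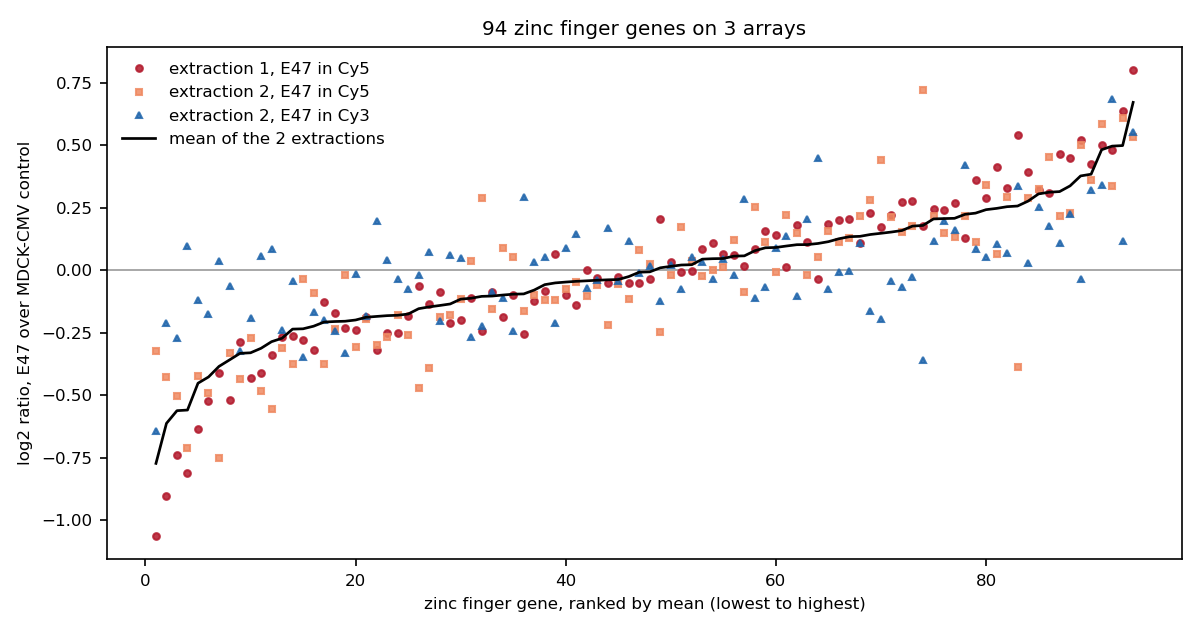
Log2 ratio, E47 over MDCK-CMV control (vertical axis), of the 94 zinc finger genes ranked by mean from lowest to highest (horizontal axis), with 1 point per array and a black line for the mean of the 2 extractions. The Cy3 points (blue) stay near 0 in much of the range where both Cy5 arrays (red and orange) leave it. Over all named genes, too, the SD was lowest on the Cy3 array, at 0.43. It was 0.55 on the Cy5 array of extraction 1 and 0.48 on that of extraction 2.

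The dye swap is shown best by members at its extremes, chosen after their values were seen. ZNF346, which binds double-stranded RNA, was at 0.18, −0.36 and 0.72, so that its mean of 0.18 ± 0.08 (moderated SE, n = 2 extractions) averaged arrays of opposite sign. ZNF449, a SCAN protein, was at 0.54, 0.34 and −0.39. ZFP37, a KRAB protein, was at −0.41, 0.04 and −0.75. The last value averages 2 spots of 1 clone that disagree, at −1.30 and −0.20. Spots of this clone that were left out as incomplete were at 0.16 and 0.17 on the same array. In these genes 1 array of extraction 2 was on the other side of 0 from the array of extraction 1. ZNF766 was at −0.81, 0.10 and −0.71, with a mean of −0.56 and an adjusted p of 0.114 in limma's test. It passed in 1 of the 11 alternatives with a test, when the Cy3 array was left out. There the log2 ratio was −0.76 and the adjusted p 0.0329, and only Cy5 arrays remained, without a dye swap.

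**Figure D3:**
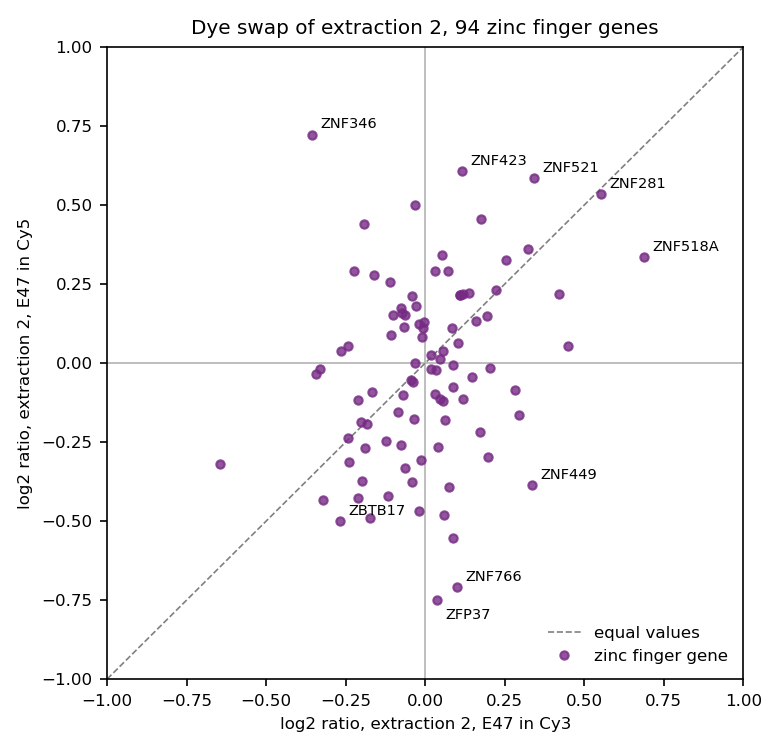
Log2 ratios of the 94 zinc finger genes in extraction 2 with E47 in Cy3 (horizontal axis) and with E47 in Cy5 (vertical axis), with a dashed line of equal values and a point per gene. ZNF281 lies close to the line in the upper right, at 0.55 and 0.53, while ZNF346 and ZNF449 lie in quadrants of opposite sign.

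Among the members that were above 0 on every array, the 4 with the highest means were ZNF281, ZNF423, ZNF518A and ZNF521. ZNF281, a C2H2 factor that binds GC-rich promoters and takes part in the control of pluripotency genes and of the epithelial to mesenchymal transition, was at 0.80, 0.55 and 0.53. Its arrays all lay above 0.5 in log2 ratio, and both arrays of the dye swap gave nearly the same value. The mean was 0.67 ± 0.11 (moderated SE, n = 2), a 1.59-fold difference with a 95% interval of 0.37 to 0.98 and an adjusted p of 0.0519 in limma's test. It rests on 1 spot of 1 clone. Under 6 of the 11 alternatives with a test it passed the threshold used there, with adjusted p-values between 0.025 and 0.0519. The highest of these is the reported value set against a threshold of 0.10. The alternative with a dye term, which it passed, counts the arrays of extraction 2 as separate replicates. The natural logarithm, also among the 11, cannot change a p-value.

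ZNF423 and ZNF521 are paralogs with many fingers that bind the B cell and adipocyte factor EBF1, and ZNF423 is also a partner of BMP-activated SMAD proteins. ZNF521 was at 0.50, 0.34 and 0.58, with a mean of 0.48 ± 0.08 (moderated SE, n = 2) and an adjusted p of 0.0595 in limma's test. ZNF423 was at 0.64, 0.12 and 0.61, with a mean of 0.50 ± 0.11 and an adjusted p of 0.0827 in limma's test. Both paralogs were above 0 on every array, with the lowest value on the Cy3 array. Related dog transcripts can bind the clones of paralogs, so their values may not be independent. ZNF518A was at 0.48, 0.69 and 0.34, with the highest value on the Cy3 array, a mean of 0.50 ± 0.08 and an adjusted p of 0.0575 in limma's test.

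The members with the lowest means among those below 0 on every array were ZBTB18, ZNF664, ZBTB17 and ZFPL1. ZBTB18, a repressor best known from cortical neurons in the mouse, was at −1.06, −0.64 and −0.32. All arrays were below 0, but they ranged widely. Its mean of −0.77 ± 0.17 (moderated SE, n = 2), the lowest of all members, had a 95% interval of −1.26 to −0.28 and an adjusted p of 0.0847 in limma's test. It was measured by 1 spot, and with scaled arrays it passed, at −0.72 with an adjusted p of 0.0475. ZNF664 was at −0.90, −0.21 and −0.43, with a mean of −0.61 ± 0.17 and an adjusted p of 0.117 in limma's test. ZFPL1, the Golgi protein, was at −0.63, −0.12 and −0.42, with a mean of −0.45 ± 0.13 and an adjusted p of 0.114 in limma's test. For both genes extraction 1 gave the lowest value and the Cy3 array the value nearest to 0.

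**Figure D4:**
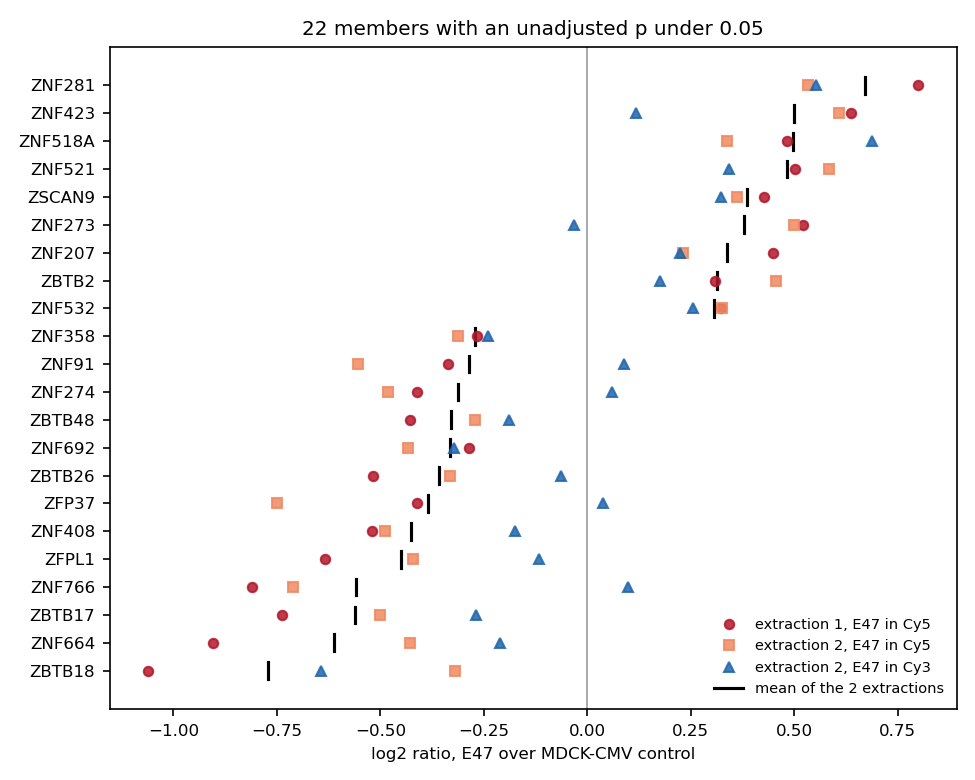
Log2 ratio, E47 over MDCK-CMV control (horizontal axis), of the 22 zinc finger genes with an unadjusted p under 0.05 (rows), with 1 point per array and a black bar for the mean of the 2 extractions. ZNF281 stands at the top, with all arrays above 0.5, and ZBTB18 at the bottom. In 5 rows, ZNF273, ZNF91, ZNF274, ZFP37 and ZNF766, the Cy3 point (blue) is on the other side of 0 from both Cy5 points.

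The 16 ZBTB genes had a median of −0.11, with 6 means above 0 and 10 below. On all 3 arrays 3 were above 0 (18.8% against 30.6% of all named genes) and 8 below (50% against 32.8%), and none passed. ZBTB17 (MIZ1), the partner through which MYC represses promoters, was at −0.74, −0.27 and −0.50, below 0 on every array. Limma's test gave a mean of −0.56 ± 0.12 (moderated SE, n = 2) and an adjusted p of 0.0834. Without the Cy3 array it passed, at −0.62 with an adjusted p of 0.0477. MYC itself, which is not a member, was at 0.28 (adjusted p = 0.125 in limma's test), and its dimer partner MAX at −0.11.

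ZBTB33 (Kaiso) binds methylated DNA and the p120 catenin of the cadherin complex. It was at −0.12, 0.03 and −0.10, so the arrays lay on both sides of 0, and its mean of −0.08 ± 0.09 (moderated SE, n = 2) had a 95% interval of −0.33 to 0.17. This mean averages 4 spots of 1 clone that disagree: on the Cy5 array of extraction 2 a pair of spots was at −0.58 and −0.78 and the other pair at 0.41 and 0.55, and in extraction 1 they were at −0.15 and −0.59 and at 0.14 and 0.11. The gene of its partner p120 catenin, CTNND1, was at −0.71, −0.82 and −0.94 and fell, with a mean of −0.80 ± 0.09 and an adjusted p of 0.0332 in limma's test. Its call was lost when the Cy5 array of extraction 2 was left out (adjusted p = 0.0744) and when arrays were scaled (adjusted p = 0.0603). Without that Cy5 array the share called over all named genes also dropped, from 9.19% to 1.98%. The difference between ZBTB33 and CTNND1 was not tested.

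The other ZBTB genes below 0 on every array were ZBTB26 at −0.36, the telomere-binding ZBTB48 at −0.33, ZBTB32, a repressor of T cell cytokine genes, at −0.23, the dendritic cell factor ZBTB46 at −0.19, ZBTB49 at −0.15 and ZBTB44 at −0.14. ZBTB46 was even across arrays, at −0.19, −0.18 and −0.19, and the 2 clones of each of ZBTB46 and ZBTB48 were below 0. ZBTB2, ZBTB11 and ZBTB9 were above 0 on every array. ZBTB2, a repressor of p53 pathway genes, was at 0.31, 0.18 and 0.46 with a mean of 0.31 ± 0.08 (moderated SE, n = 2) and an adjusted p of 0.108 in limma's test. ZBTB11 had a mean of 0.25 and ZBTB9 of 0.21. ZBTB43, ZBTB14 and ZBTB25 had means of 0.13, 0.09 and 0.08 with the Cy3 array below 0, and ZBTB34 was at −0.04. A further gene, ZBTB40, had a value on the Cy3 array only.

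**Figure D5:**
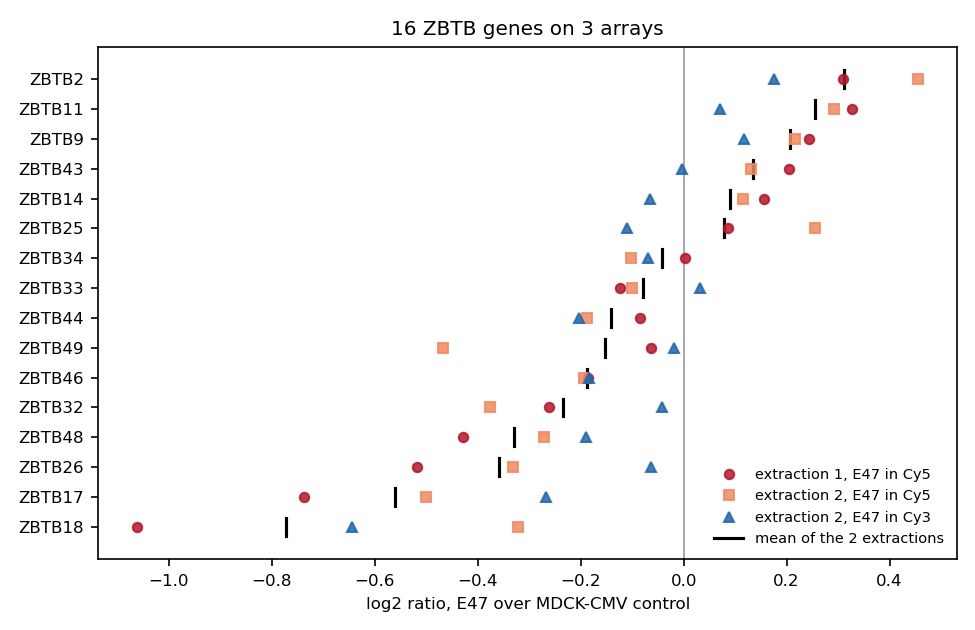
Log2 ratio, E47 over MDCK-CMV control (horizontal axis), of the 16 ZBTB genes (rows), with 1 point per array and a black bar for the mean of the 2 extractions. The means run from ZBTB2 at 0.31 down to ZBTB18 at −0.77, and 10 of the 16 bars are left of 0.

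KRAB zinc finger genes, a large class of vertebrate repressors, were counted by domains known from human proteins. The 42 KRAB members had a median of 0.03, with 22 means above 0 and 20 below. On all 3 arrays 11 were above 0 (26.2% against 30.6% of all named genes) and 4 below (9.52% against 32.8%). An unadjusted p under 0.05 was reached by 1 that was higher and 4 that were lower, which is 11.9% against 35.6% of all named genes. Their means ran between −0.56 for ZNF766 and 0.38 for ZNF273. ZNF273, at 0.52, −0.03 and 0.50, and ZNF274, at −0.41, 0.06 and −0.48, both had a Cy3 value near 0. The ZNF274 values average 4 spots of 1 clone, which in extraction 1 ran from −1.14 to 0.18 and on the Cy5 array of extraction 2 from −0.74 to −0.06. ZNF274 recruits the histone methyltransferase SETDB1 to the 3' ends of zinc finger genes in human cells, and SETDB1 was at 0.01. ZNF91, which silences primate retrotransposons in human cells, was at −0.34, 0.09 and −0.55.

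ZNF354A was first described in rat kidney as Kid-1. It was at −0.25, 0.29 and −0.16, with a mean of −0.09 ± 0.12 (moderated SE, n = 2) and a 95% interval of −0.43 to 0.24. The dye swap lay on both sides of 0. ZNF350, which acts with BRCA1 as a repressor, was at −0.02. The 9 SCAN members, 4 of which also count as KRAB, had a median of 0.14, with 7 means above 0 and 2 below. ZSCAN9 was above 0 on every array, at 0.43, 0.32 and 0.36, with a mean of 0.38 ± 0.09 and an adjusted p of 0.0849 in limma's test. ZSCAN22 was at 0.15 and ZNF263, a SCAN and KRAB protein, at 0.47, 0.11 and 0.22, on 1 spot.

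The remaining 31 members had a median of −0.04. ZNF207 was at 0.45, 0.22 and 0.23, above 0 on every array, with a mean of 0.34 ± 0.10 (moderated SE, n = 2) and an adjusted p of 0.126 in limma's test. ZNF532 was at 0.32, 0.25 and 0.33. ZNF408, linked to retinal vessel growth in humans, was at −0.52, −0.17 and −0.49, with a mean of −0.43 and an adjusted p of 0.0866 in limma's test. ZNF692 was at −0.29, −0.32 and −0.43 and ZNF358 at −0.27, −0.24 and −0.31, both even across arrays. ZNF750, a driver of epidermal differentiation, was at −0.28, −0.34 and −0.04. Members near 0 that were measured by several spots included ZNF711, a gene of X-linked intellectual disability, at 0.02, with spots of its clone between −0.19 and 0.16, and ZNF385B at −0.0073. The SUMO ligase ZNF451 was at 0.13 and ZNF827, which recruits a chromatin remodeller to telomeres, at 0.18.

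Spots of a clone agreed closely in most clones with 2 complete spots. In 77 clones with 2 complete spots the median gap between the means of the spots was 0.04, the largest was 0.38 and 3 were above 0.25. In 12 clones with more than 2 complete spots the median gap between the highest and the lowest spot was 0.21, the largest was 0.80, 5 were above 0.25 and 7 clones had spots of opposite sign. Such a range grows with the number of spots, so it is not comparable with the gap of a pair. Spots with neighbouring numbers could still agree, as in a clone of ZNF286A at 0.11 and 0.11 and at −0.03 and −0.04. In ZNF266 such a pair was at −0.29 and 0.06. The widest were ZNF274 with spot means between −0.73 and 0.07, ZBTB33 between −0.48 and 0.21, ZNF782 between −0.35 and 0.28 and ZNF266 between −0.29 and 0.32. The means of these 4 genes average spots that differ in sign, and the spread between spots is not part of the SE. Of 8 members with several clones, 3 had clones of opposite sign: ZNF286A, ZNF385B and ZNF75D, whose clones all lay between −0.04 and 0.14. The 2 clones of ZNF142 were at −0.25 and −0.15.

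The name of a clone is human and the RNA is from dog. A RefSeq gene table of the dog (assembly UU_Cfam_GSD_1.0) holds the symbol of 71 of the 94 members (75.5%), against 91.3% of all named genes. For the KRAB members it holds 25 of 42, and for the ZBTB members 16 of 16. The members without a dog symbol include ZNF766, ZNF273, ZSCAN9, ZNF207 and ZNF91, so what their clones measured in dog RNA is not settled. The median size of the ratio was 0.16 for the 71 with a dog symbol and 0.17 for the 23 without. Among members with a dog symbol, 4 pairs are next to each other among the protein-coding genes of the dog, and in 3 of these pairs the signs differ: ZBTB34 and ZBTB43 at −0.04 and 0.13, ZNF45 and ZNF404 at −0.10 and 0.14, and ZNF782 and ZNF510 at −0.0059 and 0.23. ZNF75D and ZNF449 were both above 0, at 0.05 and 0.26.

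Of the 12 genes without a value on all 3 arrays, 4 had no value at all: ZNF3, ZNF771, ZNF826P and ZNF829. ZBTB40, ZFP36L2, ZNF200 and ZNF83 had values on the Cy3 array only, and ZFP36L1, ZFP90 and ZFPM2 on the Cy5 arrays only. The spots of ZFPM2, a cofactor of GATA factors, were at 0.80 and 0.70 in extraction 1 and at 0.41 and 0.54 in extraction 2. Those of ZFP90 were at 0.77 and 0.75 in extraction 1 and at 0.58 and 0.70 in extraction 2. Those of ZFP36L1 were at −0.50 and −0.52 in extraction 1, with 1 value of −1.16 in extraction 2, and those of ZFP36L2 at −0.16 and −0.14. ZNF540 was at −1.06 in extraction 1 and at 0.10 and 0.14 on the Cy3 array. These genes were not tested, and the Cy5-only genes have no dye swap.

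Genes that work with zinc finger proteins were taken from lists. Of 22 corepressors of KRAB and BTB proteins 13 were measured, with a median of 0.11, and 1 fell and none rose, which is 7.69% against 9.19% of all named genes. TRIM28, the corepressor of KRAB proteins, was at −0.74, −0.79 and −1.07, with a mean of −0.84 ± 0.10 (moderated SE, n = 2), a 95% interval of −1.11 to −0.56 and an adjusted p of 0.0322 in limma's test. Leaving out the Cy5 array of extraction 2 ended the call (adjusted p = 0.0717), as did scaling the arrays (adjusted p = 0.0596). The deacetylase HDAC1, measured by 1 spot, was at 0.54 (adjusted p = 0.0506) and the histone chaperone RBBP4 at 0.63 (adjusted p = 0.0527, both in limma's test).

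Of 72 listed genes of other C2H2 families, such as the KLF, SP, GLI and ZEB factors, 34 were measured, with a median of −0.08, and 1 rose and 2 fell, which is 8.82% against 9.19% of all named genes. ZEB1, a repressor of epithelial genes, rose, at 1.45, 1.73 and 1.58. KLF4, a factor of epithelial differentiation, was at −1.37, −0.94 and −0.92, with a mean of −1.15 ± 0.14 (moderated SE, n = 2) and an adjusted p of 0.0349 in limma's test. KLF8, measured by 1 spot, fell to −0.78 (adjusted p = 0.0393 in limma's test). Without the Cy5 array of extraction 2 the adjusted p was 0.063 for KLF4 and 0.0826 for KLF8, so neither passed, and KLF8 did not pass with scaled arrays (adjusted p = 0.0673). The SD over genes was 0.45 for this list and 0.26 for the members. Whether these lists differ from the members was not tested.

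Of the 7 listed BTB zinc finger genes with other names, 3 were measured and none passed: BCL6, a repressor of B cell differentiation, at −0.40, BCL6B at −0.94 and HIC1 at −0.05. BCL6B was at −1.29, −0.19 and −0.97, with an adjusted p of 0.0821 in limma's test. Of 23 decay partners and targets of the ZFP36 family 10 were measured, with a median of −0.07, and 1 fell, which is 10% against 9.19% of all named genes. It was FOS, an AU-rich early response gene, at −0.87 with an adjusted p of 0.0429, and the call was lost without the Cy5 array of extraction 2 at 0.116. Of 10 partners of members 7 were measured, with a median of −0.11. Of these 2 fell, CTNND1 and GATA6, which is 28.6% against 9.19% of all named genes, in a short list chosen with earlier results known. GATA6, an endodermal GATA factor, was at −0.73 (adjusted p = 0.0341), which was lost without that array at 0.0819 and with scaled arrays at 0.06.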

How the data were processed

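RNA of 3 two-colour arrays was measured. The authors deposited 1 column of log ratios per array, read here as log2. The sources used here do not give the background correction, the normalization, the base or the direction. Column medians of −0.00506, 0.00266 and 7.67e-04 show that the columns are centred near 0. Base 10 cannot hold, because the largest value of 7.80 is above 4.82, the log10 of a 16-bit range, and the natural logarithm stays possible. All columns were taken to run the same way, since they correlate positively. Of 27648 spots, 25537, 25282 and 24771 had a value. Signal intensities were not used here, so dim and control spots could not be filtered. The number of arrays limits the precision.

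Spots valued on every array were averaged per gene, and each spot that had none or more than 1 symbol was a feature of its own. The arrays of extraction 2 share RNA and were averaged. All 14008 features entered 1 fit in limma 3.58.1 (lmFit, eBayes; R 4.3.3), which asked whether the ratio differs from 0. The prior had 2.71 degrees of freedom, and Benjamini-Hochberg adjusted p-values under 0.05 were called. The control is taken as a common reference, and its own spread is left out. Intervals use the moderated SE. The test was tried on simulated data. Figures were drawn with matplotlib 3.10.9.

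The members and lists were chosen with earlier results of these data known. Named by rule were members that passed, the 4 highest and 4 lowest members with 1 sign on all arrays, every ZBTB and ZFP36 gene, and listed genes that passed or else had the largest mean. Other members were named after their values were seen, and the KRAB and SCAN classes were set then from general knowledge. Sequences were not used here, so planned counts of fingers and promoter motifs were not made. Alternatives changed arrays, dye, scaling, spots, variance setting, features tested, threshold and log base.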

Additional observations from a re-analysis of the deposited data

How the results depend on the processing

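The counts of zinc finger genes that passed were 0 higher and 0 lower in the reported setting. They were the same with median centred arrays, with the median over spots and with robust eBayes, where 8.73%, 9.08% and 9.35% of named genes passed. They were also the same without the Cy5 array of extraction 2. There only 109 named genes (1.98%) passed, against 506 (9.19%) in the reported setting, so 0 members says little. A call lost without that array is not particular to the gene. Reading the values as natural logarithms rescales all of them and cannot change a p-value, so it gave the same counts by construction. Without the Cy3 array of extraction 2, 4 passed as higher and 4 as lower (8.51% of members against 16.7% of named genes). With dye as a term over the 3 arrays, 3 were higher and 0 lower (3.19% of members against 13.5% of named genes). That fit counts the arrays of extraction 2, which share RNA, as separate replicates. With scaled arrays 1 was higher (ZNF281) and 1 lower (ZBTB18), and with every spot that had a value on an array 1 was higher (ZNF281). With named genes tested alone, and likewise at an adjusted p under 0.10, 5 were higher and 4 lower, which is 9.57% of members against 21.3% and 22.6% of named genes. The share of members was below that of named genes in every setting run. The median log2 ratio of the members lay between −0.0151 and 0.0063 when each extraction was left out, and it was 0.0121 with the dye term. E47 and control RNA shared each array, so every ratio is already paired, and no other pairing was made because all arrays belong to 1 group. The cause of these differences was not tested. Signal over background is unknown, so how far dim spots limit the ratios was not tested.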
